A study of Mus musculus with 30 samples.

Results

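The mRNAs of kinesins and of the numbered centrosomal (Cep) proteins were examined in spermatogonial stem cell (SSC) lines of the mouse. Members were chosen by name, as every gene whose symbol begins with Kif or Kifc and a number or with Cep and a number. This gave 67 genes of the 14558 with a value, namely 33 kinesins, 33 Cep genes and Kif1bp, a kinesin-binding protein that the name rule also takes in. RNA abundance was listed for 62 of them and an mRNA half-life for 27, with 22 in both. The half-life tables alone held Kif11, Kif20a, Cep76, Cep120 and Cep170b.

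Both SSC lines had been derived from neonatal testis and grown on fibroblast feeders, and each carried an allele of the germ cell RNA-binding protein NANOS2 with an epitope and EGFP tag. Line 4 was Nanos2TAG/+ and line 5 was Nanos2TAG/TAG, so that neither line lacked NANOS2 or was free of the tagged allele. Abundance came from 1 ribosomal RNA-depleted RNA-seq library per line, with RNA extracted in QIAzol for Nanos2TAG/+ and in Trizol for Nanos2TAG/TAG, so that genotype, line and reagent cannot be told apart. Half-lives came from SLAM-seq, in which RNA labeled with 4-thiouridine is followed through its T-to-C conversions after the label is withdrawn. Per line, 12 libraries (chase times of 0, 30, 60, 120, 540 and 1440 min, in 2 technical replicates) had been reduced by the authors to 1 fitted half-life per transcript. With 1 value per line, no test between the lines was possible, and the differences below carry counting error only or, for half-lives, no error at all.

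Kinesins are motor proteins that use ATP to move along microtubules or to take microtubule ends apart. Mitotic kinesins build the spindle, align chromosomes and drive cytokinesis, and their mRNAs are known to accumulate late in the cell cycle. Transport kinesins carry vesicles, organelles and ciliary components. Cep proteins build the centriole pair at the heart of the centrosome, license its duplication once per cell cycle, or equip the mother centriole to form a cilium. In the male germline the mitotic kinesin KIF23 is also known as a component of the intercellular bridges that join spermatogonia after incomplete cytokinesis.

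The FPKM table followed the labels for SSCs, since 10 of 11 spermatogonial markers lay above the median of all genes in each line. Uchl1, Sall4, Zbtb16 and Gfra1 were among these, and the lowest marker value was 1.76 FPKM in Nanos2TAG/+ and 1.59 FPKM in Nanos2TAG/TAG. The summed FPKM of the 11 was 1397 in Nanos2TAG/+ and 1901 in Nanos2TAG/TAG, with 7 higher and 4 lower in Nanos2TAG/TAG. By the 2-fold limit defined below, 4 of the 11 were higher in Nanos2TAG/TAG and 0 lower, beside 13.5% and 9.59% of all genes. Of 12 fibroblast feeder markers, 11 were higher in Nanos2TAG/TAG, their sum was 436 against 646 FPKM, and none was at 0. Their median log2 ratio of Nanos2TAG/TAG over Nanos2TAG/+ was 0.95, beside 0.01 over all genes. By the same 2-fold limit, 6 of the 12 feeder markers were higher in Nanos2TAG/TAG and 0 lower. Of 6 differentiation markers, 5 were lower in Nanos2TAG/TAG, with sums of 245 and 178 FPKM. The part of these shifts in the values below was not tested, and in bulk RNA fewer cells of a type cannot be told apart from less RNA per cell. Whole reads could be recovered from FPKM for over 99.9% of genes. The recovered reads summed to 10937475 in Nanos2TAG/+ and 11637106 in Nanos2TAG/TAG. Members held between 4 and 3420 reads, with medians of 310 and 354.5 reads.

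Promoter sequences of the mitotic kinesins are shown first, since an element found in most of them was not found in the transport kinesins. The cell cycle genes homology region (CHR) is a promoter element of many late cell cycle genes, and its letters TTTGAA were searched on both strands of RefSeq promoters (GRCm38.p6), from 250 bases before to 50 bases after the annotated start. A promoter was listed for 56 of 67 members. The letters occurred in 10 of 11 mitotic kinesin promoters, with Kif18a as the one without, and in 0 of 9 transport kinesin promoters. Over all 10459 genes of the tables with a promoter the share was 12.1%, and over all 27025 promoters it was 18.1%. In 8 of the 10, namely Kif4, Kif11, Kif15, Kif18b, Kif20b, Kif22, Kif23 and Kifc1, a match began within 20 bases of the start, a placement seen in 1.35% of all genes of the tables. In Kif2c and Kif14 the nearest match began 103 and 228 bases before the start. A selection of the close matches is printed 5′ to 3′ on the strand of the gene, with the CHR letters or their reverse complement in capitals.
Kif11 (chr19:37376351-37376380, plus strand): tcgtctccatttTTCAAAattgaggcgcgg
Kif15 (chr9:122951050-122951079, plus strand): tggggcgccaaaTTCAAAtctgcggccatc
Kif18b (chr11:102925104-102925133, minus strand): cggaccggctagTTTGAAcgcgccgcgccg
Kif23 (chr9:61946780-61946809, minus strand): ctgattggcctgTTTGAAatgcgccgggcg
Kifc1 (chr17:33890615-33890644, minus strand): cggaggttgaaaTTCAAAagtggcgggtgt

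Both orientations appear among them, TTTGAA in Kif18b and Kif23 and TTCAAA in Kif11, Kif15 and Kifc1. The stretch shown for Kif23 also holds the reverse complement of CCAAT, a box that often accompanies the CHR. CCAAT occurred on either strand in 7 of 11 mitotic kinesin promoters (63.6%), in 3 of 9 transport kinesin promoters (33.3%) and in 39.4% of all genes of the tables with a promoter. Among genes of mitosis outside the kinesins, such as Aurka, Plk1 and Ccnb1, 10 of 13 promoters held the CHR letters. Of the 28 Cep promoters 7 held them, a share of 25%, and only Cep57l1, Cep72 and Cep112 held them within 20 bases of the start. A match describes the letters in this window and is not evidence that the site is used.

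**Figure D1:**
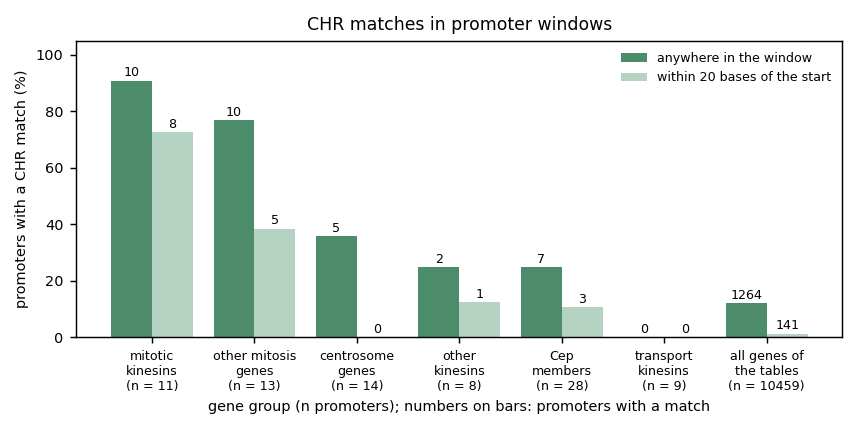
Share of promoters (y axis, percent) with the CHR letters on either strand, by gene group (x axis, n promoters below each name); dark bars count a match anywhere in the window, light bars a match that begins within 20 bases of the start, and the number on each bar is the number of promoters. Mitotic kinesins stand at 10 of 11 and transport kinesins at 0 of 9.

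Mitotic kinesin mRNAs were more abundant per length than transport kinesin mRNAs in both lines. The median FPKM of 10 mitotic kinesins was 30.3 in Nanos2TAG/+ and 30.7 in Nanos2TAG/TAG, that of 11 transport kinesins was 8.60 and 13.2, and the median over all 13904 genes was 10.2 and 10.5. The mitotic median was thus 3.52-fold and 2.33-fold the transport median. Of the 10 mitotic kinesins 9 lay above the median of all genes in each line, as did 4 and 7 of the 11 transport kinesins. In each line the mitotic gene was the higher in 88 of the 110 pairs of a mitotic and a transport kinesin. These genes are not replicates of each other, and the comparison describes them without a test.

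Kif18b, a motor that trims astral microtubules, was the highest of the 31 kinesins with an FPKM, at 102 FPKM in Nanos2TAG/+ and 149 FPKM in Nanos2TAG/TAG. Kif2c (MCAK), which depolymerizes microtubules at centromeres and so frees wrongly attached chromosomes, followed with 92.6 and 104 FPKM. Kif23, the motor of the centralspindlin complex in the spindle midzone, had 84.3 and 89.6 FPKM. The order of these 3 was the same in both lines, although Kif2c and Kif23 differed from each other by less than 1.5-fold in each.

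Kif22, which pushes chromosome arms away from the poles, was level between the lines at 54.0 and 54.2 FPKM. Kif15, which helps to keep the spindle bipolar, was the only mitotic kinesin lower in Nanos2TAG/TAG, with 36.7 FPKM in Nanos2TAG/+ and 28.7 FPKM in Nanos2TAG/TAG. The group below these lay close together. Kif4, a chromokinesin that shapes the anaphase midzone, had 23.9 and 30.9 FPKM. Kifc1, the minus-end motor that focuses spindle poles, had 23.5 and 30.4 FPKM, but 45.6% of its transcript 50-mers also occur in transcripts of other genes, so that its count is uncertain. Kif14, a cytokinesis motor of the midbody, had 19.3 and 26.8 FPKM. Their order was the same in both lines, with Kif4 and Kifc1 within each other's counting intervals.

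Kif20b, another cytokinesis motor, was near the median of all genes at 12.4 and 12.8 FPKM. Kif18a, which damps the swings of chromosomes at the metaphase plate, was the lowest mitotic kinesin at 4.66 and 8.11 FPKM, from 147 and 275 reads. Its exons overlap Mettl15 on the opposite strand, and whether strand was used in quantification is not given in the sources used here. Kif11, which separates the spindle poles, and Kif20a, which brings Aurora B to the midzone, had half-lives only. Kif2b and Kifc5b of this class, and Kif5b, Kif13b, Kif16b and Kifc2 of the transport class, had neither an FPKM nor a half-life among the values used here. The medians and rankings of both classes therefore describe the listed genes only.

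Among the 11 transport kinesins with an FPKM, the highest 2 belonged to the kinesin-3 family. Kif1b, a carrier of mitochondria and vesicles, had 33.1 FPKM in Nanos2TAG/+ and 37.1 FPKM in Nanos2TAG/TAG. Kif1c, a carrier of vesicles and integrins, had 28.9 and 40.8 FPKM. The highest transport kinesin lay below 5 of the 10 mitotic kinesins in Nanos2TAG/+ and below 4 of them in Nanos2TAG/TAG. Kif1b and Kif1c exchanged places between the lines.

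The kinesin-1 heavy chains Kif5a and Kif5c, which carry cargo together with kinesin light chains, had 15.9 and 15.1 FPKM, and 25.4 and 13.2 FPKM. Kif5a was level, while Kif5c was 1.93-fold higher in Nanos2TAG/+ (95% counting interval 1.64 to 2.26, from 442 and 247 reads), short of the 2-fold limit used here. In the kinesin-2 family, which moves material into cilia, Kif3a had 8.60 and 13.4 FPKM. Kif3c had 8.66 and 13.0 FPKM, Kif3b had 6.64 and 5.81 FPKM and Kif17 had 5.64 and 5.52 FPKM. Kif3a and Kif3c were thus higher in Nanos2TAG/TAG, and the counting intervals of the ratios of Kif3b and Kif17 included 1. Kifap3, the subunit that ties KIF3 motors to cargo, was low as well, at 3.18 and 3.88 FPKM.

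Kif13a, an endosome motor, had 6.55 FPKM from 140 reads and 14.1 FPKM from 325 reads. Kifc3, a minus-end motor of cell junctions, had 0.901 FPKM from 14 reads and 5.14 FPKM from 86 reads. Kif1a, the motor of synaptic vesicle precursors, had 0.118 FPKM from 4 reads and 1.51 FPKM from 55 reads. All 3 were higher in Nanos2TAG/TAG, and the last 2 were the lowest of the listed kinesins in Nanos2TAG/+.

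**Figure D2:**
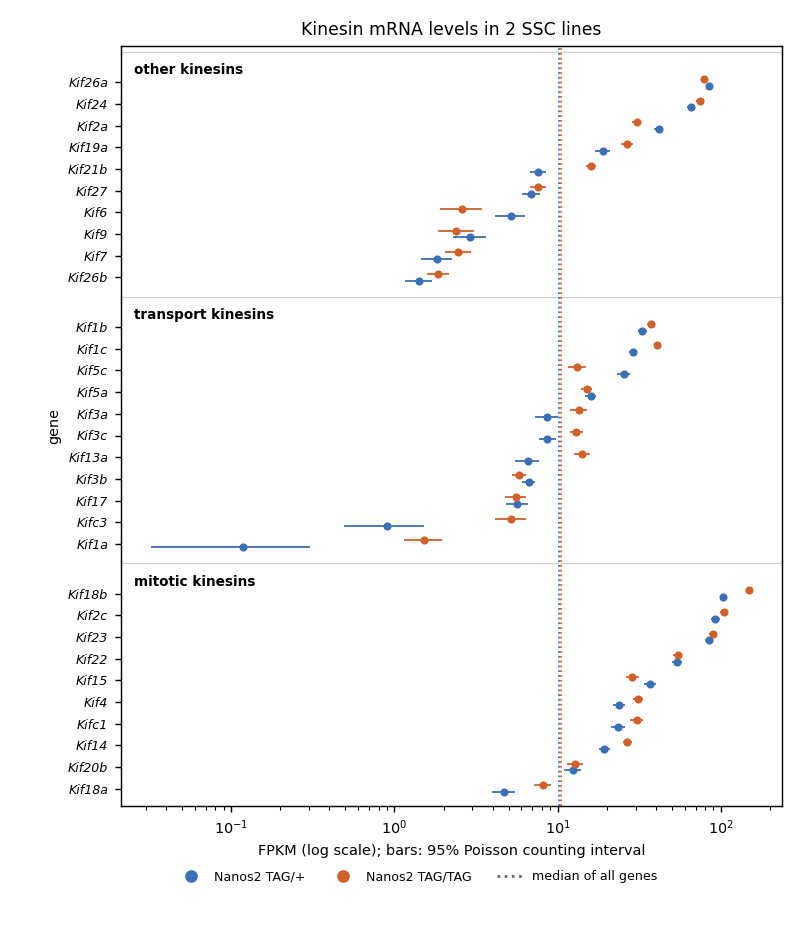
FPKM of 31 kinesins (x axis, log scale) by class, with Nanos2TAG/+ in blue and Nanos2TAG/TAG in orange; points are 1 library each, bars are 95% Poisson intervals of the reads, and dotted lines mark the median of all genes in each line. Of the 10 mitotic kinesins 9 lie right of the dotted lines, and Kif1a and Kifc3 are far to the left in Nanos2TAG/+.

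The remaining kinesins covered the same range. Kif26a, which lacks motor activity and is known to restrain GDNF-Ret signaling in enteric neurons, was the most abundant of them at 84.7 FPKM in Nanos2TAG/+ and 79.3 FPKM in Nanos2TAG/TAG. Kif24, a centriolar depolymerase that restrains cilium formation, had 65.4 and 74.2 FPKM. Kif2a, a depolymerase with mitotic and neuronal roles, had 41.5 and 30.4 FPKM. Each of the 3 stood above every transport kinesin or, for Kif2a in Nanos2TAG/TAG, below Kif1b and Kif1c. Kif19a, which limits the length of motile cilia, had 18.9 and 26.5 FPKM, and Kif27, a relative of the Hedgehog pathway kinesin Kif7, had 6.87 and 7.60 FPKM. Kif7 itself, together with Kif9 and Kif26b, lay between 1.41 and 2.90 FPKM in both lines. Kif6 had 5.15 FPKM from 89 reads in Nanos2TAG/+ and 2.58 FPKM from 48 reads in Nanos2TAG/TAG.

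Cep mRNAs spanned a wider range than the mitotic kinesins, and their median lay below that of all genes, at 8.04 FPKM in Nanos2TAG/+ and 7.60 FPKM in Nanos2TAG/TAG (n = 30). Of the 30, 12 and 13 were above the median of all genes. Among 10 centriole duplication genes the spread was widest. Cep85, a partner of STIL in the activation of the duplication kinase PLK4, was the highest of the 62 members with an FPKM, at 193 and 189 FPKM. Cep192, the scaffold that recruits pericentriolar material, had 87.7 and 92.3 FPKM. Cep295, required to convert a new centriole into a centrosome, had 50.9 and 47.9 FPKM, and 4 annotated genes, Taf1d among them, overlap it on the opposite strand. These 3 were level between the lines, each within 1.1-fold.

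The other duplication genes lay under the median of all genes in both lines. Cep152, the scaffold that docks PLK4, had 1.03 FPKM from 65 reads and 0.502 FPKM from 34 reads. Its binding partner Cep63 had 4.26 and 4.67 FPKM. Cep135, a cartwheel protein, had 1.10 and 1.38 FPKM, and Cep97, which caps centrioles together with CCP110, had 2.38 and 2.85 FPKM. Each of these 4 was at least 10-fold below Cep85 and Cep192 in both lines. Cep57 and Cep57l1, which hold mother and daughter centriole together, had 4.87 and 6.82 FPKM, and 7.43 and 9.77 FPKM. Cep44, a protein of the centriole lumen, had 9.81 FPKM from 113 reads in Nanos2TAG/+ and 3.63 FPKM from 45 reads in Nanos2TAG/TAG, the lowest ratio of Nanos2TAG/TAG over Nanos2TAG/+ among all members.

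Appendage and cilium genes had medians of 10.5 and 15.2 FPKM (n = 13). Distal appendages anchor the mother centriole to the membrane. Of their components Cep89 had 76.2 and 67.7 FPKM, Cep164 had 25.4 and 42.4 FPKM, and Cep83 had 4.5 and 5.26 FPKM. The subdistal appendage proteins Cep170 and Cep128 had 39.3 and 41.2 FPKM, and 6.28 and 5.24 FPKM. Components of 1 structure thus differed in level by more than 6-fold in each line.

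Cep41, which promotes tubulin glutamylation in cilia, had 20.8 and 27.7 FPKM, and Cep350 had 18.8 and 15.6 FPKM. Cep162 and Cep290 of the ciliary transition zone had 10.5 and 11.3 FPKM, and 3.45 and 3.18 FPKM. Cep19 had 9.14 and 15.2 FPKM, the satellite protein Cep131 had 7.98 and 7.07 FPKM, and Cep126 had 3.63 and 3.38 FPKM. None of the 13 appendage and cilium genes passed 2-fold between the lines, beside 13.5% of all genes higher in Nanos2TAG/TAG and 9.59% lower. Of the pair that links the 2 centrosomes until mitosis, Cep68 was abundant at 74.4 and 83.7 FPKM and Cep250 (C-Nap1) low at 2.73 and 4.03 FPKM.

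**Figure D3:**
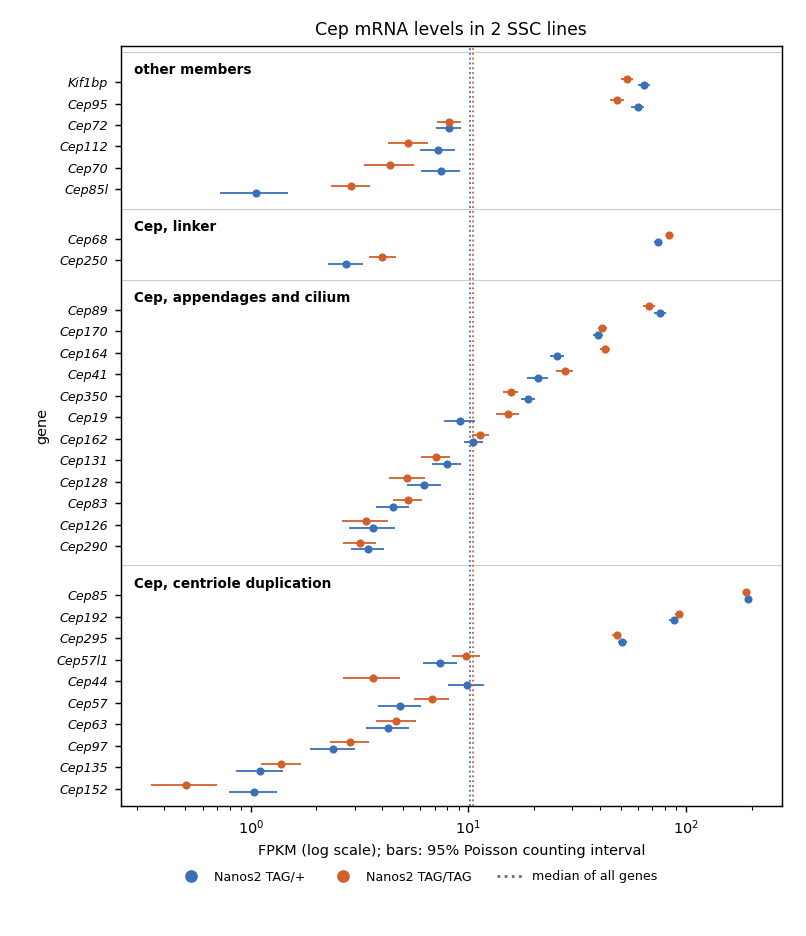
FPKM of 29 Cep genes and Kif1bp (x axis, log scale) by role, with Nanos2TAG/+ in blue and Nanos2TAG/TAG in orange; points are 1 library each, bars are 95% Poisson intervals of the reads, and dotted lines mark the median of all genes. Cep85 lies at the right edge in both lines, and Cep44 and Cep152 are the duplication genes with the clearest gap between the lines.

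Between the lines, 5 of 62 members were more than 2-fold higher in Nanos2TAG/TAG on the log2(FPKM + 0.1) scale, where 13.5% of all genes were, and 1 of 62 was more than 2-fold lower, where 9.59% were. The share among members was therefore below that of all genes in both directions. The median absolute difference was 1.26-fold over the members and 1.39-fold over all genes. All 10 mitotic kinesins stayed within 2-fold. Of 11 transport kinesins 3 were more than 2-fold higher and 0 lower, beside the same 13.5% and 9.59% of all genes. Among these 3, Kif1a and Kifc3 had only 4 and 14 reads in Nanos2TAG/+, whereas the lowest mitotic kinesin had 147. No difference between the classes is drawn from these few genes.

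Kif1a was 12.8-fold higher in Nanos2TAG/TAG (95% counting interval 4.72 to 48.6), a ratio that rests on 4 reads in Nanos2TAG/+. Kifc3 was 5.71-fold higher (3.22 to 10.9) and overlaps other genes on the opposite strand. Cep85l, a relative of Cep85, was 2.73-fold higher (1.81 to 4.21), with 1.05 FPKM from 32 reads and 2.88 FPKM from 94 reads. It overlaps Pln on the opposite strand. Kif13a was 2.16-fold higher (1.76 to 2.65). Kif21b, which slows microtubule growth, was 2.12-fold higher (1.86 to 2.42), with 7.57 FPKM from 331 reads and 16 FPKM from 754 reads. Cep44 was 2.70-fold higher in Nanos2TAG/+ (1.90 to 3.91). The intervals of Cep85l, Kif13a, Kif21b and Cep44 reach below 2-fold, and all of these intervals cover counting error and not the spread between cultures. The feeder marker sum was higher in Nanos2TAG/TAG as well, and 6 of 12 feeder markers were more than 2-fold higher. The part of feeder RNA in the 5 higher genes was not tested.

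Just inside the limit were Kif6 (2-fold higher in Nanos2TAG/+ without the pseudocount, 1.39 to 2.90) and Cep152 (2.06-fold, 1.34 to 3.21), whose ratios on the log2(FPKM + 0.1) scale were -0.97 and -0.91. Higher in Nanos2TAG/TAG, but within 2-fold, were Kif18a at 1.74-fold (1.42 to 2.14), Cep164 at 1.67-fold (1.52 to 1.83) and Cep19 at 1.66-fold (1.36 to 2.03). The median log2 ratio was 0.27 over mitotic kinesins, 0.50 over transport kinesins, 0.07 over Cep genes and 0.01 over all genes. Of 31 kinesins 22 had a ratio above 0, as had 17 of 30 Cep genes. Above the median ratio of all genes, where 6952 of 13904 genes lie by definition, were 21 of the 31 and 16 of the 30.

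**Figure D4:**
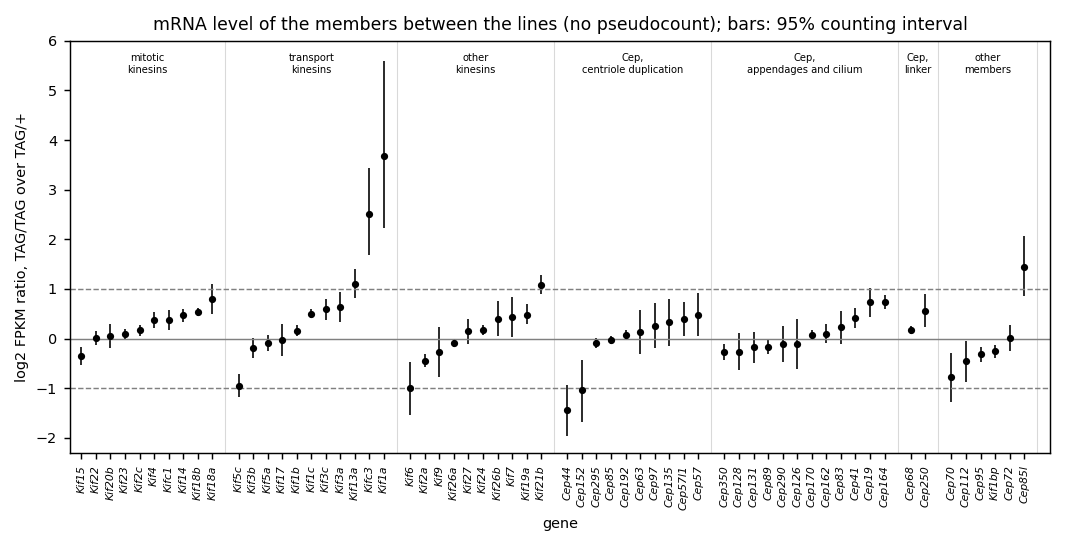
Ratio of FPKM in Nanos2TAG/TAG over Nanos2TAG/+ (y axis, log2, no pseudocount) for 61 members (x axis) by class; bars are exact 95% intervals of the ratio of reads and dashed lines mark 2-fold. Kif1a, Kifc3, Kif13a, Kif21b and Cep85l lie above the upper line and Cep44 below the lower one, as does Cep152 before the pseudocount is added.

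Half-lives of the 27 members had medians of 203 min in Nanos2TAG/+ and 215 min in Nanos2TAG/TAG, beside 224 and 226 min over all 5806 transcripts. In both lines 13 of 27 members lay below the median of all transcripts, where 39.8% of all transcripts did. Among the shortest 25% of all transcripts in both lines were 3 of 27 (Cep76, Kif14 and Kif18a), where 15.6% of all were. Among the longest 25% in both lines was 1 of 27 (Kif1c), where 19.1% of all were. Half-lives were listed for 8 of 10 mitotic kinesins with an FPKM, for 3 of 11 transport kinesins and for 7 of 30 Cep genes, against 37.1% of all genes.

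Cep76, which restrains the reduplication of centrioles, had short half-lives that were nearly equal, at 90.3 min in Nanos2TAG/+ and 89.9 min in Nanos2TAG/TAG. Kif14 had 81.8 and 126 min and was the shortest-lived kinesin in Nanos2TAG/+. Kif18a had 149 and 110 min and was the shortest-lived kinesin in Nanos2TAG/TAG. Kifc1 had 92.7 and 181 min, short in Nanos2TAG/+ only. The lowest values thus belonged to different members in each line, apart from Cep76.

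The other mitotic kinesins had half-lives from 182 to 350 min. Kif23 had 192 and 184 min, Kif18b had 203 and 200 min, and Kif15 had 217 and 187 min. Kif4 had 206 and 231 min, Kif11 had 209 and 281 min, Kif20a had 254 and 182 min and Kif22 had 215 and 350 min. Kif18b and Kif23, both abundant mitotic kinesins, had half-lives within 1.1-fold between the lines.

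The medians of mitotic and transport kinesins were alike, at 204 and 208 min in Nanos2TAG/+ and 186 and 204 min in Nanos2TAG/TAG. Only 3 transport kinesins had a value. Kif3a had 208 and 204 min, Kif3b had 184 and 122 min, and Kif1c had 449 and 827 min. Kif1c was the one kinesin above 540 min, and in Nanos2TAG/TAG only. Without it in either line, the mitotic median was the longer, by 8.37 min in Nanos2TAG/+ and by 22.6 min in Nanos2TAG/TAG. The order of the classes thus rests on 1 gene. Of the mitotic kinesins 6 of 10 were below the median of all transcripts in both lines, 2 were among the shortest 25% in both and 0 among the longest 25%, beside 39.8%, 15.6% and 19.1% of all transcripts.

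Among the other kinesins Kif24 had 186 and 114 min, Kif2a had 244 and 313 min and Kif26a had 351 and 222 min. Cep half-lives ranged from 89.9 to 363 min. Cep85, the most abundant member, had 241 and 247 min. Cep120, a further duplication gene, which promotes centriole elongation, had 173 and 227 min. Of the appendage and cilium genes Cep41 had 186 and 215 min, Cep162 had 237 and 202 min and Cep170 had 203 and 217 min. The linker genes Cep68 and Cep250 had 148 and 215 min, and 207 and 363 min, both longer in Nanos2TAG/TAG. Cep70 had 158 and 294 min, Cep170b had 136 and 229 min and Kif1bp had 319 and 161 min.

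Between the lines, 7 of 27 half-lives were more than 1.5-fold longer in Nanos2TAG/TAG, where 10% of all transcripts were, and 4 of 27 were more than 1.5-fold shorter, where 10.7% were. The longer ones were Kifc1 (1.95-fold), Cep70 (1.86-fold), Kif1c (1.84-fold), Cep250 (1.75-fold), Cep170b (1.69-fold), Kif22 (1.63-fold) and Kif14 (1.54-fold). For Kifc1, 45.6% of transcript 50-mers also occur in transcripts of other genes, and the effect on its half-life was not tested. The shorter ones, given as Nanos2TAG/+ over Nanos2TAG/TAG, were Kif1bp (1.99-fold), Kif24 (1.62-fold), Kif26a (1.58-fold) and Kif3b (1.51-fold). No member passed 2-fold, and the share of all transcripts past that limit is not given here. The median absolute difference between the lines was 1.36-fold over the members and 1.20-fold over all transcripts. Spearman's rho between the lines was 0.42 over 27 members and 0.77 over 5806 transcripts. Split by family, rho was 0.74 over 16 kinesins and 0.26 over 10 Cep genes, with median absolute differences of 1.38-fold and 1.24-fold. Each point is a fit to libraries of 1 line, and the range of the members is narrower than that of all transcripts.

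**Figure D5:**
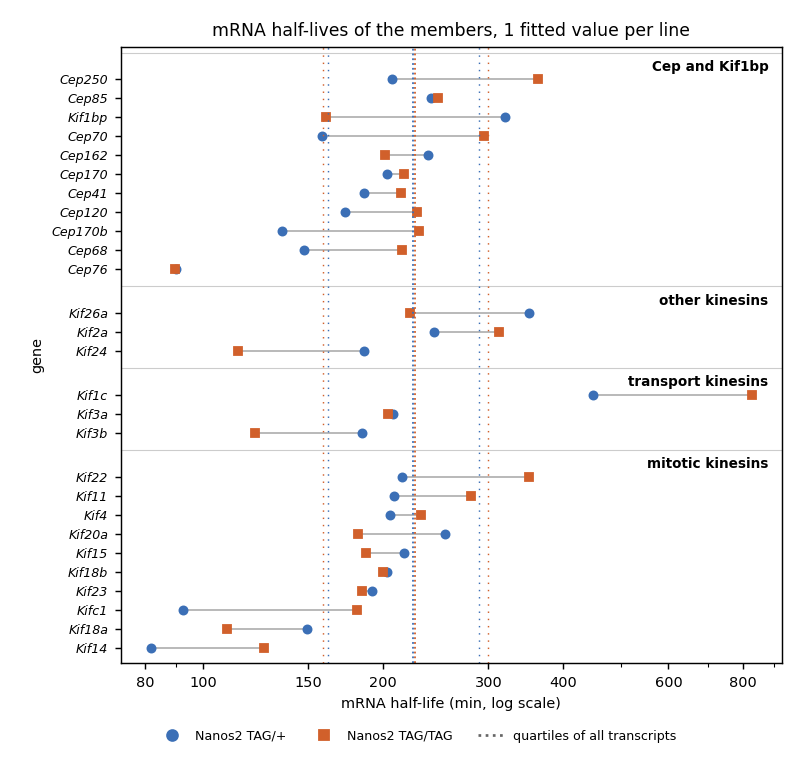
Half-lives (x axis, min, log scale) of 27 members, with Nanos2TAG/+ as blue circles and Nanos2TAG/TAG as orange squares joined by a line; vertical dotted lines mark the quartiles of all transcripts in each line. Cep76 and Kif14 lie at the left, Kif1c alone lies beyond 400 min in both lines, and the lines between the points point both ways.

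The 3′ UTRs of the members were searched for the heptamer AUGAAAU with its variant AUGAAUU as well as for AUUAAAU with its variant AUUAAUU, the letters that the study considered for NANOS2 contacts. At least 1 occurred in 33 of 67 members (49.3%), with a median 3′ UTR of 908 bases, beside 38.7% of 13090 genes of the tables, with a median of 1049 bases. By class the heptamers occurred in 6 of 12 mitotic kinesins, 4 of 11 transport kinesins and 19 of 33 Cep genes. Their density was 0.931 per kilobase in mitotic and 0.218 per kilobase in transport kinesins, beside 0.494 per kilobase over all genes of the tables. Few sites stand behind the mitotic value, with 3 in Kif14, 2 in Kif11 and at most 1 in any other. The 3′ UTRs of transport kinesins were longer than those of mitotic kinesins, with medians of 2759 and 541.5 bases. Kif14 and Kif18a, the kinesins among the shortest 25% in both lines, held 3 and 1, all in the last exon. They are printed as RNA on the plus strand (GRCm38), with the heptamer in capitals.
Kif14 exon 29 (chr1:136527864-136527890): uggcaucagaAUGAAAUuaagguauca
Kif14 exon 29 (chr1:136529670-136529696): cuacauaucaAUUAAAUaggaaacacu
Kif14 exon 29 (chr1:136530618-136530644): ccgugcuugcAUUAAUUcauuguucuc
Kif18a exon 17 (chr2:109341490-109341516): aacauaguaaAUUAAAUugcccuuauu

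Kif1c, the longest-lived member, held none in 3085 bases of 3′ UTR, and Kif18b and Kif23 held none in 671 and 384 bases. Kif2a, with 244 and 313 min, held 5 in 3143 bases, so that members with the heptamers were not all short-lived. Over the members, 14 transcripts with a heptamer had median half-lives of 186 and 208 min, and 13 without had 208 and 215 min. Over all transcripts the medians were 196 and 200 min with a heptamer (n = 2419) and 245 and 247 min without (n = 3365). Longer 3′ UTRs offer more positions for a heptamer, and length was not separated from it.

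The genes that work with these motors and centrosomal proteins gave the following picture. Of 7 kinesin partners with an FPKM, 1 was more than 2-fold higher in Nanos2TAG/TAG and 0 lower, beside 13.5% and 9.59% of all genes. Klc3, a kinesin-1 light chain, had 9.95 FPKM from 162 reads and 20.8 FPKM from 365 reads, while the light chains Klc1 and Klc2 had 21.7 and 21.6 FPKM, and 33.3 and 47.3 FPKM. Cenpe, the kinetochore kinesin that the name rule leaves out, had 23.6 and 44.4 FPKM, a level inside the range of the mitotic kinesins.

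Of 17 other centrosome genes 0 passed 2-fold in either direction, and of 14 other genes of mitosis 0 did, beside 13.5% of all genes higher and 9.59% lower. The mitosis list, with median FPKM of 82.9 and 81.3, lay above the mitotic kinesins. Stil, the partner of Cep85, had half-lives of 76.9 and 75.3 min and was shorter-lived than Cep76 in both lines. The kinase Plk4 had 117 and 308 min and was the centrosome gene with the largest difference between the lines. Half-lives of the mitosis list had medians of 232 and 259 min (n = 14). Among the shortest 25% in both lines was 1 of 14 (Cdk1), beside 15.6% of all transcripts. Among the longest 25% in both lines were 2 of 14 (Cdca8 and Top2a), beside 19.1% of all transcripts.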

How the data were processed

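The authors deposited FPKM values of 1 RNA-seq library per line. The columns were assigned to the lines by the letters of their names (GG and Gp) and the file's name, since no label spells these out, and each FPKM direction between the lines rests on this. The labels name kallisto and DESeq2 without versions. The study's methods describe sorted SSCs, and the labels describe feeder depletion. Half-lives in minutes were deposited by the authors, who fitted first-order decay to SlamDunk conversion rates normalized to the start of the chase, from 3′-end libraries, with technical replicates collapsed. CRAC libraries were not analysed here. Members and gene lists were chosen with earlier results of these data known. Reads were recovered by multiplying FPKM by the mean GENCODE M21 transcript length and dividing by the worth of 1 read, within 0.1 of a whole number. They may be rounded estimates, and ratios have exact 95% binomial intervals, which cover counting error only. On data simulated with counting error alone for 13885 genes, 94.7% of 2000 intervals held the true ratio. These 2000 were drawn from genes with a mean of at least 50 reads. The share checks the calculation and says nothing about the spread of real libraries or about genes with fewer reads. A member counted as different past 2-fold on log2(FPKM + 0.1), or past 1.5-fold in half-life. These limits are descriptive, since 1 library per line allows no test. 3′ UTRs were taken from 1 transcript per gene in GENCODE M21, the principal one and then the longest and promoters from RefSeq, the first listed per gene. Named genes are the listed kinesins and Cep genes, members past a limit or at the extremes, and genes of the partner, centrosome and mitosis lists. Low-read values are imprecise, and depth behind half-lives is unknown. Python 3.11 with pandas and scipy was used. The values of 1 member are not reported here and are left out of the plots.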

Additional observations from a re-analysis of the deposited data

How the results depend on the processing

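Of 32 values under another setting, 20 kept their direction and size, 10 moved and 2 changed sign. The 5 members past 2-fold higher in Nanos2TAG/TAG were 3 with a pseudocount of 1, 3 with at least 1 FPKM in both lines, and 9 past 1.5-fold, and the 1 lower member became 5 past 1.5-fold. Shares of all genes under the other settings are not given here. Member counts under them therefore show only how the calls move, not whether they exceed the background. Requiring 50 reads over both libraries, a setting chosen after the data were seen, left both counts as they were, as did centring on the median of all genes. Leaving out Kif1c, also chosen later, changed neither FPKM difference beyond the gap between the lines. No half-life passed 2-fold, so that the 7 longer and 4 shorter ones became 0 and 0. The mitotic minus transport difference of median FPKM in Nanos2TAG/+ was 21.7 and became 28.1 with Kif2a counted as mitotic and also 28.1 without Kifc1. The half-life difference changed sign with half-lives up to 540 min. It went from -3.47 to 8.37 min in Nanos2TAG/+ and from -18.3 to 22.6 min in Nanos2TAG/TAG. That limit removes Kif1c from both lines, although only its Nanos2TAG/TAG half-life of 827 min exceeds it. The same limit took the members among the longest 25% from 1 to 0, and at least 5 FPKM in both lines took those among the shortest 25% from 3 to 1, since Cep76 has no FPKM and Kif18a has under 5 in Nanos2TAG/+. No replicate could be left out with 1 library per line. No paired analysis was possible because each group of the comparisons is 1 library or 1 fitted value.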
